A study of Gallus gallus with 20 samples.

Results

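The genes described are AGT, ACE, AGTR1, AGTR2 and ATP6AP2, members of the renin-angiotensin system, measured in adult chicken (Gallus gallus) kidney. They were chosen by name, with earlier results of these data known, from transcript rows whose gene symbol was 1 of these 5. All 5 had a row, and together they held 15 of 43169 named transcript rows and 5 of 19650 named genes. Every value comes from 1 RNA-seq library of total kidney RNA, for which the labels give the age as adult and neither sex, strain nor treatment. The series also holds 19 small RNA libraries of kidney and testis in 11 groups, which were not analysed here. The library held 21832272 estimated reads. There was 1 sample, so no difference between samples was tested, and intervals are 95% intervals that cover the counting error of the reads only.

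The system sets blood pressure and the balance of salt and water. Renin, secreted in mammals by granular cells of the afferent arteriole, cuts angiotensinogen, the product of AGT, to angiotensin I. Angiotensin-converting enzyme, the product of ACE, removes the terminal dipeptide of angiotensin I to give angiotensin II, which acts on the receptors encoded by AGTR1 and AGTR2. ATP6AP2 encodes a membrane protein that binds renin and its precursor and is also an accessory subunit of the vacuolar proton pump. In mammals the liver makes most of the circulating angiotensinogen, and ACE lines vessels and the brush border of the proximal tubule.

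The 5 genes spanned a wide range of levels, with ATP6AP2 at the top and AGT and AGTR2 at the bottom. Levels are in TPM, a scale that divides reads by transcript length and sets the sum over all rows of the table to 1000000. ATP6AP2 stood at 161 TPM from 4547 reads (interval 156 to 166). ACE stood at 38.1 TPM from 2618 reads (36.7 to 39.6). AGTR1, the receptor through which most known effects of angiotensin II on vessels and salt retention run in mammals, stood at 1.43 TPM from 43 reads (1.03 to 1.93).

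AGTR2, the second angiotensin II receptor, stood at 0.277 TPM from 27.0 reads (0.182 to 0.402). AGT, the gene of the precursor itself, stood at 0.253 TPM from 11 reads (0.126 to 0.453). Reads of a gene can also lie on unnamed assembled transcripts, which held 25.9% of all reads. Such reads are not in these levels or intervals, and their number was not tested. Of the summed TPM of the 5 genes, ATP6AP2 held 80.1%, ACE 19.0% and the other three together 0.975%. In whole tissue, fewer cells of a type and less RNA per cell cannot be told apart.

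Among all named genes, ATP6AP2 ranked at place 377 from the top and ACE at place 1708. AGTR1 ranked at place 9542, AGTR2 at 11858 and AGT at 11972. The median over all named genes was 1.21 TPM, which lies inside the interval of AGTR1, below those of ATP6AP2 and ACE and above those of AGTR2 and AGT. Among genes with a symbol other than a LOC number, as all members have, the median was 6.04 TPM, above the interval of AGTR1, and AGTR1 stood above 32.5% of them. Detection of a gene was set at a level of 1 TPM, reached on no fewer than 3 reads. ATP6AP2, ACE and AGTR1 were detected by this rule and AGTR2 and AGT were not, which makes 3 of 5, against 51.4% of all named genes and 70.5% of those with a symbol. The AGTR1 interval began just above the threshold.

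**Figure D1:**
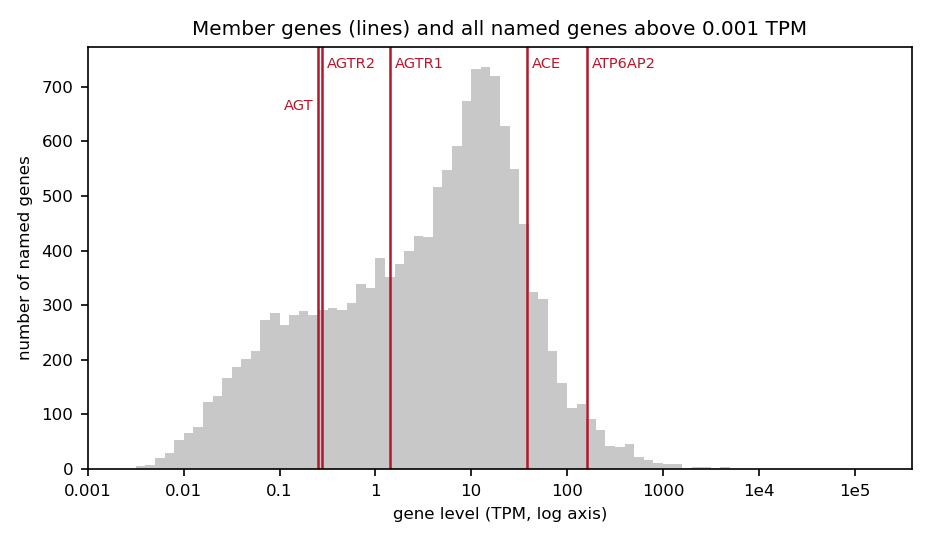
Number of named genes by level (TPM, log axis) for the 14946 genes with reads, with the 5 renin-angiotensin genes as vertical lines. ATP6AP2 at 161 TPM and ACE at 38.1 TPM lie to the right of the main peak, and AGTR2 at 0.277 and AGT at 0.253 TPM lie in the left shoulder.

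All 10 pairs among the 5 genes were compared within the library, as ratios of TPM with exact conditional binomial intervals. ATP6AP2 stood 4.22 times as high as ACE (4.02 to 4.43). ACE stood 26.7 times as high as AGTR1 (19.7 to 36.9), and AGTR1 stood 5.17 times as high as AGTR2 (3.13 to 8.71). These are neighbours in the order of levels, and each differed in TPM by more than counting error. AGTR2 stood 1.09 times as high as AGT (0.524 to 2.44), and this pair did not differ beyond counting error. ACE stood 151 times as high as AGT, with a wide interval of 84.1 to 302 that follows from the 11 reads of AGT. On reads alone, without division by length, AGTR1 had 1.59 times as many as AGTR2, and no interval was formed for this value. The TPM ratio of this pair thus also rests on the effective lengths, 1900 bases for AGTR1 and 6178 bases for AGTR2.

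**Figure D2:**
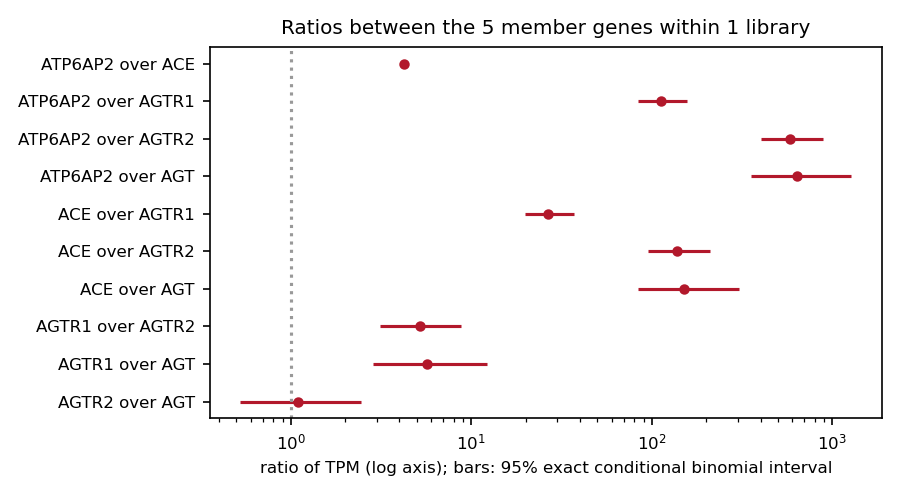
Ratios of TPM for the 10 pairs of member genes within the kidney library (points, log axis) with 95% exact conditional binomial intervals (bars). The interval of AGTR2 over AGT, 0.524 to 2.44, is the single one that crosses the dotted line at 1.

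The named transcripts of each gene were examined next, since Salmon, the program that made the table, divides reads among transcripts that share sequence. The 15 rows included 6 with reads and 9 without. ACE had a single row, of 4539 bases on the plus strand, and ATP6AP2 a single row, of 1984 bases on the minus strand, so no isoform share could be formed for these genes. Their estimated reads were not whole numbers, so part of them was shared with other rows of the table. This held for 66.8% of the 4776 genes with a single row and at least 100 reads.

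AGTR1 had 7 rows of 1427 to 2319 bases on the plus strand. All 43 of its reads were assigned to the row of 2099 bases, a share of 100% (exact binomial interval 91.8 to 100). The other six rows had none, among them the curated row of 1427 bases, for which 3 reads would have been 0.154 TPM and 6.98% of the gene's reads. AGT had 4 rows of 2947 to 3222 bases on the minus strand, and all 11 reads were on the shortest, a share of 100% (71.5 to 100). For AGT, 3 reads would have been 27.3% of the reads, so the share of the other rows is poorly bounded.

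AGTR2 was the member with reads on more than 1 row. Its row of 5630 bases had 16.8 reads and 0.195 TPM, and its row of 8165 bases had 10.3 reads and 0.0815 TPM. The shorter row thus held 70.5% of the gene's TPM and 62.0% of its reads (42.4 to 80.6), an interval that includes an equal split. Among the 310 named genes with at least 4 rows and 10 to 50 reads, 117 (37.7%) likewise had every read on 1 row, as AGTR1 and AGT did. Splitting of shared reads adds an error to these shares that the intervals leave out.

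**Figure D3:**
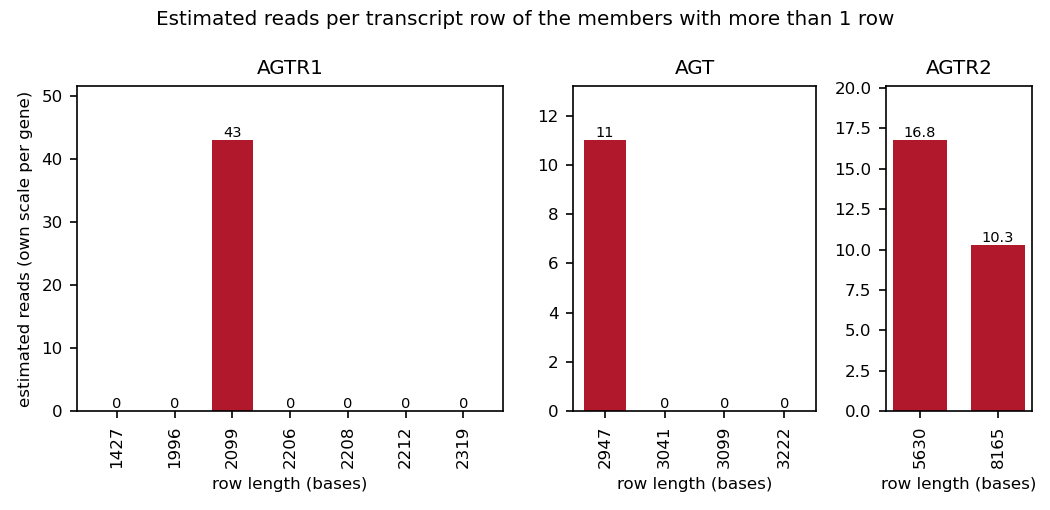
Estimated reads (vertical axis, own scale per gene) on every named transcript row, by row length in bases, for the 3 member genes with more than 1 row. AGTR1 and AGT have all reads on 1 row each, of 2099 and 2947 bases, while AGTR2 has 16.8 and 10.3 reads on its rows of 5630 and 8165 bases.

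A list of 23 genes of the angiotensin pathway, which includes the 5 members, placed these levels among their partners. This list and those below were chosen with earlier results of these data known. Their counts beside the share over all genes are therefore a description only. Of the 23, 17 had a row and 14 of those 17 were detected, against 51.4% of all named genes and 70.5% of those with a symbol other than a LOC number. Their median was 35.6 TPM, against 1.21 TPM for all named genes and 6.04 TPM for those with such a symbol. The other 12 genes with a row, without the members, had a median of 41.7 TPM, and 11 were detected. In the plot of levels by role, the 8 peptidases that cut angiotensins further stood above AGTR1, AGTR2 and MAS1. AGTRAP, grouped with these receptor genes, stood at 30.1 TPM, and the protease gene CTSG, grouped with ACE, at 1.05 TPM. The role groups were chosen after the values were seen, so the plot is a description only. MRGPRD, LNPEP, PRCP, CMA1, CPA3 and DPP3 were not analysed here.

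**Figure D4:**
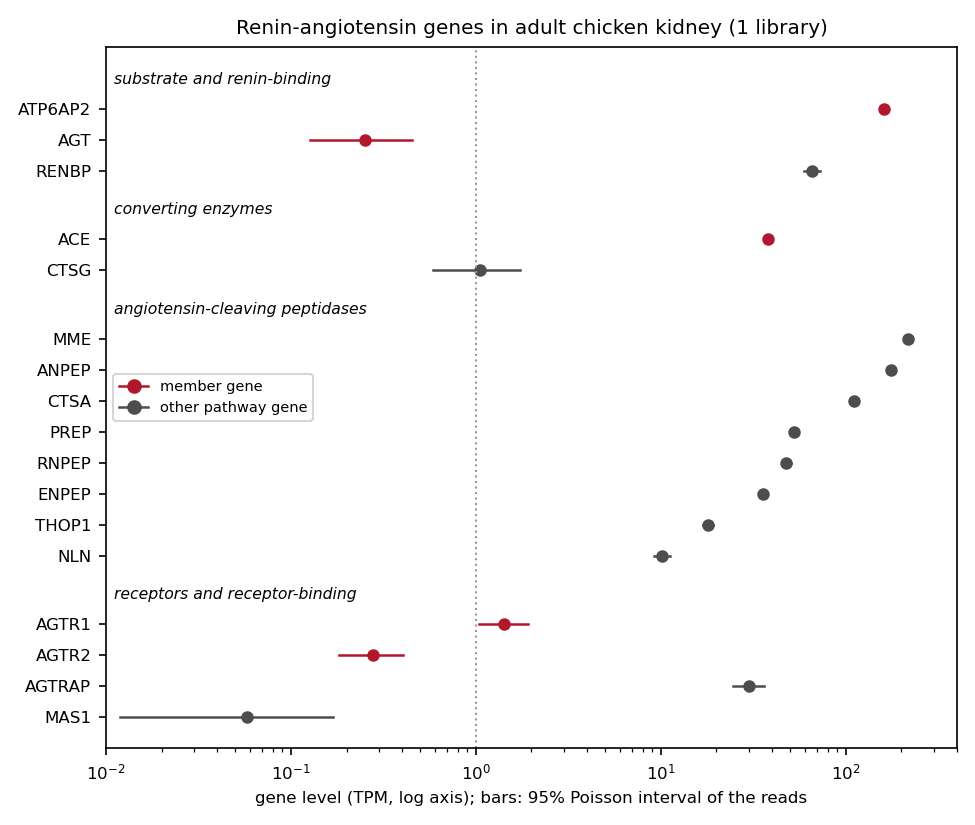
Gene levels (TPM, log axis) of the 17 angiotensin pathway genes with a row, grouped by role, with 95% Poisson intervals of the reads (bars). Members are red, other pathway genes grey, and the dotted line marks 1 TPM. All 8 genes of the peptidase group lie between 10.2 and 217 TPM, while AGTR1, AGTR2 and MAS1 lie between 0.0576 and 1.43 TPM. AGTRAP, in the group of the receptors, lies at 30.1 TPM, and the protease gene CTSG, grouped with ACE, at 1.05 TPM.

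Besides ATP6AP2, RENBP encodes a protein that binds renin and is also an epimerase of amino sugars. It stood at 65.9 TPM (59.3 to 73.1) from 360 reads on rows of 420 and 847 bases. These rows are short, so the level leans on the correction for effective length. With annotated length RENBP stood at 69.6 TPM, while ATP6AP2 stood at 256 TPM. ATP6AP2, at 161 TPM, and RENBP thus both lay far above AGT.

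Because the liver makes most of the circulating angiotensinogen in mammals, the level of AGT was read beside hepatocyte markers. Of 11 such markers 9 had a row and 6 (66.7%) were detected, near the 70.5% of genes with a symbol, with a median of 4.25 TPM and a summed level of 873 TPM. APOB alone gave 792 TPM of that sum, and APOH and F2 followed at 50.4 and 16.2 TPM. The 3 not detected were ALB, serum albumin, at 0.492 TPM from 23.0 reads, AHSG, fetuin A, with 2 reads, and TTR, transthyretin, with none. AGT was 0.514 times as high as ALB (0.226 to 1.10), and this pair did not differ beyond counting error. ALB was picked for this ratio after its level was seen. The 9 markers with a row ran from 0 to 792 TPM, and the 6 detected ones all stood above AGT. Which cells, of the kidney or of other tissue, gave the 11 reads of AGT was not tested.

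Genes that control renin cells, through the release or the expression of renin, were described through a list of 19. Of these 17 had a row, 13 (76.5%) were detected and the median was 8.74 TPM. That share is close to the 70.5% detected among all genes with a symbol other than a LOC number, whose median was 6.04 TPM. GJA5, the connexin that couples renin cells in mammals, stood at 46.0 TPM, CREBBP at 43.4 TPM and EP300 at 37.5 TPM, the last pair being co-activators that maintain renin expression in mice. Endothelial cells also express GJA5. PTGS2, the prostaglandin synthase of the macula densa in mammals, stood at 35.9 TPM and the beta-adrenergic receptor gene ADRB1 at 2.27 TPM. This pair was named after its values were seen. The 4 genes of the list with a row that were not detected were PTGER2 at 0.984 TPM, ADORA1 at 0.737 TPM, FOXD1 at 0.484 TPM and TBX18 at 0.0662 TPM.

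CTSG, cathepsin G, was measured beside ACE as a leukocyte protease that can form angiotensin II in mammals. It stood at 1.05 TPM from 15 reads (0.589 to 1.74), an interval that includes the threshold of 1 TPM and lies far below the 38.1 TPM of ACE.

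Of the 8 measured peptidases that cut angiotensins further, 5 stood above ACE. MME, neprilysin, stood at 217 TPM and was 5.70 times as high as ACE (5.46 to 5.96). ANPEP, aminopeptidase N, stood at 176 TPM and was 4.61 times as high as ACE (4.41 to 4.82). ENPEP, aminopeptidase A, which takes the first residue from angiotensin II, stood at 35.6 TPM and was 0.933 times as high as ACE (0.882 to 0.988). MME, ANPEP and ENPEP are brush border enzymes of the proximal tubule in mammals. The lysosomal carboxypeptidase gene CTSA stood at 110 TPM, PREP at 52.8 TPM, RNPEP at 47.9 TPM, THOP1 at 18.0 TPM and NLN at 10.2 TPM.

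ACE is expressed by vessels and by the proximal tubule in mammals, and markers of both were present. All 10 measured endothelial markers were detected, against 70.5% of genes with a symbol, with a median of 19.8 TPM, a summed level of 219 TPM, and PLVAP, PECAM1 and VWF at the top. ACE was 0.983 times as high as PECAM1 (0.928 to 1.04), an endothelial adhesion gene at 38.8 TPM, and the pair did not differ beyond counting error. PECAM1 was picked for this ratio after its level was seen, and the 10 endothelial markers ran from 2.95 to 45.2 TPM. All 7 measured proximal tubule markers were detected, between 157 and 4055 TPM, with SLC34A1, PCK1 and MIOX at the top and a summed level of 10898 TPM. How much of the ACE level came from either cell type was not tested.

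ACE also breaks down bradykinin, and the 3 measured kinin genes stood between 2.16 and 4.31 TPM, below ACE and above AGTR1. KNG1, the kininogen gene, stood at 4.31 TPM, the receptor gene BDKRB2 at 2.75 TPM and the receptor gene BDKRB1 at 2.16 TPM. All 3 were detected, against 70.5% of genes with a symbol and 51.4% of all named genes. KLKB1 was not analysed here. AGTR1 was 0.519 times as high as BDKRB2 (0.358 to 0.741) and 0.661 times as high as BDKRB1 (0.440 to 0.983).

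Among the pathway genes with a row, MAS1, AGTR2 and AGT were the only ones below 1 TPM. MAS1, the receptor of a shorter angiotensin peptide, had 3 reads and stood at 0.0576 TPM (0.0119 to 0.168). AGTR1 was 24.8 times as high as MAS1 (7.94 to 125) and AGTR2 was 4.80 times as high (1.47 to 24.7). AGTRAP, whose product binds the AGTR1 receptor and drives its internalization in mammals, stood at 30.1 TPM (24.6 to 36.2). Its row of 423 bases is short and had 107 reads, so the level leans on the correction for effective length. With annotated length AGTRAP stood at 28.4 TPM, while ACE stood at 64.4 TPM.

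Of 21 listed genes that carry the signal of the AGTR1 receptor, 15 had a row and 14 (93.3%) were detected, against 70.5% of genes with a symbol and 51.4% of all named genes, with a median of 13.1 TPM. GRK5, a receptor kinase, at 1.72 TPM, PLCB2, a phospholipase, at 1.52 TPM and CYBB, an oxidase subunit, at 1.47 TPM lay inside the interval of AGTR1 itself, and were named after their values were seen. RHOA, a small GTPase that governs contraction, stood at 425 TPM, ITPR2, a calcium release channel, at 54.8 TPM and CYBA, a subunit of the superoxide-forming oxidase, at 30.8 TPM. ARHGEF1, which activates RHOA downstream of the receptor in mouse vessels, was the single one not detected, at 0.218 TPM from 16 reads. Of the AGTR2 partners, MTUS1, which encodes a protein that binds that receptor, stood at 119 TPM and the phosphatase gene PTPN6 at 43.9 TPM. These genes serve many receptors, and PTPN6 is foremost a leukocyte gene.

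Vessel wall and blood cell markers were measured because mural cells are among the sites of AGTR1 in mammals. For the counts that follow, the share detected was 70.5% of genes with a symbol and 51.4% of all named genes. Of 9 measured mural markers 8 (88.9%) were detected, with a median of 17.6 TPM, a summed level of 223 TPM and MCAM, ACTA2 and TAGLN at the top. Of 9 leukocyte markers 8 (88.9%) were detected, with a summed level of 269 TPM and CD74, CD3D and LCP1 at the top. Adrenal tissue, a known site of AGTR1, was represented by 8 measured markers, of which 3 (37.5%) were detected, HSD3B1, CYP17A1 and STAR, with a summed level of 11.4 TPM. The adrenal markers MC2R and TH had no reads. The part of any of these cells in the 43 reads of AGTR1 was not tested.

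ATP6AP2 was set beside the vacuolar proton pump, of which it is an accessory subunit. Of 20 other listed pump genes 15 had a row, and all 15 were detected, against 70.5% of genes with a symbol, between 19.9 and 177 TPM with a median of 60.0 TPM. ATP6AP1, the other accessory subunit, was the single one above ATP6AP2, and ATP6AP2 was 0.910 times as high (0.875 to 0.946). ATP6AP2 was 1.28 times as high as ATP6V0A4 (1.23 to 1.33), a membrane-sector subunit at 125.6 TPM found in intercalated cells in mammals. Next came ATP6V1D, a rotor subunit, at 94.0 TPM. ATP6AP2 was 4.59 times as high as ATP6V1A (4.36 to 4.83), the catalytic subunit at 35.1 TPM.

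**Figure D5:**
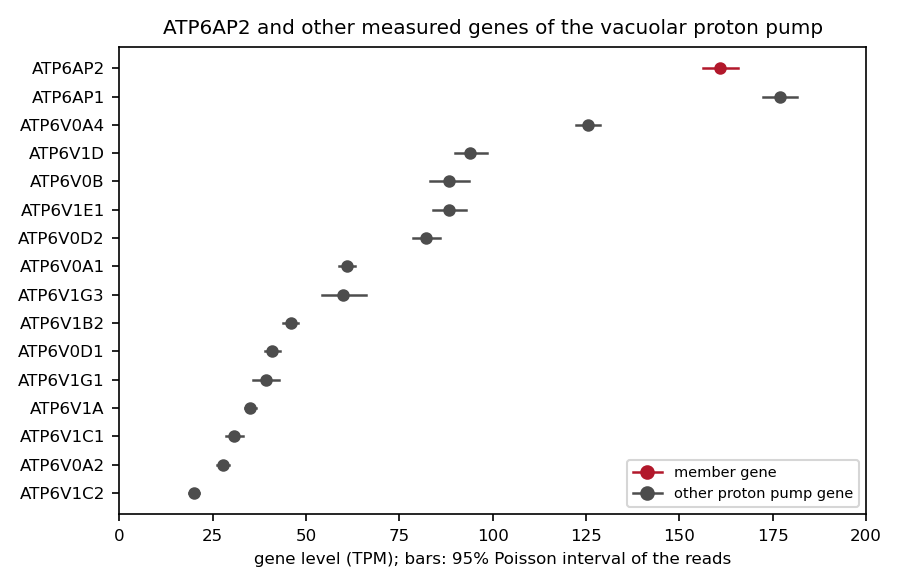
Gene levels (TPM, linear axis) of ATP6AP2 (red) and the 15 other proton pump genes with a row (grey), with 95% Poisson intervals of the reads (bars). ATP6AP2 at 161 TPM lies below ATP6AP1 at 177 TPM and above all other pump genes drawn, the lowest being ATP6V1C2 at 19.9 TPM.

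The pump is dense in intercalated cells. All 7 measured intercalated markers were detected, against 70.5% of genes with a symbol, with a median of 60.0 TPM. CA2, ATP6V0A4 and ATP6V0D2 stood at the top. Of these 7, 3 are also on the pump list. Podocyte markers had a median of 18.5 TPM and a summed level of 124 TPM, with PODXL and TCF21 at the top. All 4 podocyte markers with a row were detected, against the same 70.5%. ATP6AP2 stood above every measured podocyte marker, and above every intercalated marker other than CA2 at 580 TPM.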

How the data were processed

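The members and gene lists were chosen with earlier results of these data known. Transcript abundance was estimated with Salmon on galGal6, per the submitters' processing notes. Its version, its strand setting and the origin of the transcript models are not stated there. The deposited TPM values sum to 1000000 over all 79570 rows, and the deposited estimated counts are reads that Salmon split among rows, unrounded in 27.7% of rows. Annotated and effective lengths are given in bases, per the file headers. Named rows held 64.5% of reads and unnamed assembled transcripts 25.9%, so a gene's reads can lie outside its named rows.

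Gene levels were sums over rows carrying the symbol. Poisson, Clopper-Pearson and conditional binomial 95% intervals used reads rounded to whole numbers (SciPy 1.17.1, pandas 2.3.3, Python 3.11.15) and were tested on simulated data. The simulated counts were whole and drawn from the Poisson and binomial models that the intervals assume. They held no reads split among rows, so only the computation was checked. The intervals cover counting error only, since PCR copies of a molecule were not removed by identifiers. The limit for rows without reads was 3 reads. Whole reads were judged within 0.0005.

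The naming rule covered the 5 members, every angiotensin and kinin gene with a row, and the 3 highest genes of each other list. Some genes under this rule are not reported here, and lists are counted without them. Genes named otherwise were chosen after their values were seen, as were the role groups and the pairs outside the members. With 1 library no p-value, batch check or likeness between genes was possible. Lists were described by counts and medians. Alternatives were other lengths, row choices, scalings, backgrounds and thresholds. The sources used here hold no sequences of these genes, so none is shown. The gene table of GRCg7b, another build, served for names and neighbours only, and all 5 members were found in it. By transcript identifier, 6 rows of AGTR1 and 1 each of ACE and ATP6AP2 matched it, against 0 of AGT and 0 of AGTR2.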

Additional observations from a re-analysis of the deposited data

How the results depend on the processing

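Of 176 alternative values, 141 stayed within the counting interval of the reported value (counts within 1.5 times) and 35 moved. The 141 include 15 values with non-coding transcripts left out, which could not move because no member has such a row. Use of the most abundant row alone could change only values that involve AGTR2, the member with reads on more than 1 row. It put AGTR2 at 0.195 TPM, below AGT, and AGTR2 over AGT at 0.771 in place of 1.09, inside the interval of that ratio. The tally is therefore no measure of how stable the results are. Levels of the members rose wherever the scaling changed: with annotated length to 64.4 TPM for ACE, 2.29 for AGTR1, 0.473 for AGTR2 and 256 for ATP6AP2; over named genes alone to 59.2, 2.22, 0.429 and 249.8; without rows under 300 bases to 59.0, 2.21, 0.428 and 249; and without the 10 highest rows, chosen after seeing the data, to 66.3, 2.49, 0.481 and 279.8. AGT stayed inside its wide interval under all of these. Rescaling multiplies every gene alike, by 1.55, 1.55 and 1.74, so ratios between genes do not change with it. Rows under 300 bases held 35.4% of the summed TPM on 0.493% of reads, so the reported levels depend on the presence of those rows. ATP6AP2 over ACE was 3.97 with annotated length, and the other 9 pairs stayed within their intervals. Percentiles among named genes were 98.1 for ATP6AP2, 91.3 for ACE, 51.4 for AGTR1, 39.7 for AGTR2 and 39.1 for AGT. They were 97.4, 87.4, 32.5, 22.4 and 22.0 among genes with a symbol other than a LOC number, and 97.2, 87.3, 29.1, 12.4 and 11.7 among genes with at least 3 reads, by construction, since low genes leave the background. With no filter, 5 of the 5 members, 6 of the adrenal markers and 4 of the 4 receptor and receptor-binding genes had at least 1 read, against 3, 3 and 2 detected. Most named genes had reads too, 14946 of 19650. At 5 TPM, 0 of the kinin genes, 9 AGTR1 signalling genes, 1 adrenal marker, 1 receptor or receptor-binding gene and 1 converting enzyme passed, against 3, 14, 3, 2 and 2. Of the members, 2 passed at 5 TPM, against 3, with AGTR1 lost, a change that counts as within 1.5 times. The share of all genes at 5 TPM is not given here, but the median over genes with a symbol was 6.04 TPM. Among the members, AGT had the fewest reads, 11. No paired analysis was possible because the RNA-seq group has 1 sample.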

Other observations

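The nearest protein-coding genes flanking the members were looked up in the GRCg7b gene table, for order only, after the levels were known. No other gene of that table overlaps any of the 5. ACE, at 38.1 TPM, lies between CYB561 at 2.07 TPM and KCNH6, which had no reads, and was 18.5 times as high as CYB561 (13.5 to 26.0). ATP6AP2, at 161 TPM, lies beside MED14, a Mediator subunit gene, at 15.6 TPM. AGT, at 0.253 TPM, lies between COG2, a Golgi tethering gene, at 10.04 TPM and the calpain gene CAPN9 at 1.19 TPM. AGTR1, at 1.43 TPM, lies beside the transcription factor gene ZIC1, which had 1 read. AGTR2, at 0.277 TPM, lies beside the amino acid transporter gene SLC6A14, at 0.201 TPM from 10 reads.

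Over all 5704 named genes with more than 1 row and at least 3 reads, 21.9% had every read on 1 row, and the leading row held a median of 78.8% of reads. AGTR2, at 62.0%, lay below that median, and AGTR1 and AGT, at 100%, lay above it.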
